A study of Mus musculus with 8 samples.

Results

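10 genes of the lipid droplet coat and of lipolysis were followed in the livers of 4 FxrKO males and 4 Bcl6LKOFxrKO males. The members were taken by symbol from the deposited table of 24940 genes. They were the perilipins *Plin2*, *Plin3*, *Plin4* and *Plin5*, the CIDE genes *Cidea*, *Cideb* and *Cidec*, and the lipolysis genes *Pnpla2*, *G0s2* and *Abhd5*, which makes 10 members. All mice were C57BL/6, carried floxed *Bcl6* and lacked FXR, the bile acid receptor encoded by *Nr1h4*, in the whole body. The FxrKO mice have the genotype Bcl6(fl/fl), FXR(homo) in the labels. The Bcl6LKOFxrKO mice carry Alb-Cre in addition, and this recombinase is driven by the Albumin promoter and was used to delete *Bcl6* in hepatocytes. Whether other liver cells kept the gene was not measured here. The FxrKO livers are numbered 1 to 4 and the Bcl6LKOFxrKO livers 5 to 8, each with a mouse number of its own. The study's methods describe mice as fed ad libitum or briefly fasted unless stated otherwise, and which of these applied to each liver, and the ages, are not given in the sources used here. Livers with intact *Fxr* were not analysed here.

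Hepatocytes store triglyceride in lipid droplets, which are coated by perilipins. PLIN2 is the main coat protein of hepatocyte droplets, PLIN3 moves between cytosol and droplets, and PLIN4 and PLIN5 are best known from adipose and oxidative tissues. CIDE proteins act where droplets touch, and CIDEC promotes their fusion, while CIDEB is the hepatocyte member and takes part in VLDL lipidation. Adipose triglyceride lipase, encoded by *Pnpla2*, starts triglyceride breakdown, ABHD5 is its co-activator and G0S2 its inhibitor. Several of these genes are known targets of the PPAR nuclear receptors, and BCL6 is a transcriptional repressor that opposes PPARA in liver.

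The libraries held between 7586241 and 11839503 reads counted on genes, and liver 8 was the deepest. Levels are given as CPM, read counts scaled to a common library size with TMM factors. A floor of 3 counts equals 0.253 to 0.395 CPM before TMM scaling and covers counting error only. Of all genes, 12340 passed the expression filter and were tested with edgeR's quasi-likelihood test, and a gene was called at a Benjamini-Hochberg adjusted p under 0.05. *Bcl6* lay between 21.2 and 65.2 CPM in FxrKO livers and between 4.61 and 11.9 CPM in Bcl6LKOFxrKO livers. *Nr1h4* was still counted in both genotypes, at 56.7 to 62.6 and 39.4 to 48.1 CPM. It was called lower in Bcl6LKOFxrKO livers (log2 fold change -0.46, edgeR adjusted p = 0.00497). A count over the whole gene cannot show whether a working receptor is made. The 50 most counted genes took 29.9% to 31.4% of the counts in FxrKO livers and 40.5% to 43.9% in Bcl6LKOFxrKO livers. Scaling by total counts alone shifted the median log2 fold change of all genes by -0.16, and the share of called genes that were higher went from 54.5% to 32.3%.

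In Bcl6LKOFxrKO livers, *Plin3* and *Abhd5* rose and *Cideb* fell, while *Plin2*, *Plin4*, *Plin5*, *Cidec*, *Pnpla2* and *G0s2* did not pass the test. *Cidea* did not pass the expression filter. Of the 9 members tested, 3 (33.3%) were called, against 29.7% of all tested genes, so the share of members called was near the background. By direction, 2 members were called higher, against 16.2% of all tested genes, and 1 lower, against 13.5%. The genotypes did not overlap in 2 members, *Plin3* and *Cideb*, against 31.3% of all tested genes. The *Cideb* counts may include reads of an overlapping gene, as described below, so its fall is uncertain. The median log2 fold change was 0.20 over the members tested and 0.01 over all tested genes. With bulk tissue, a change in the number of cells that express a gene and a change in RNA per cell cannot be told apart.

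**Figure D1:**
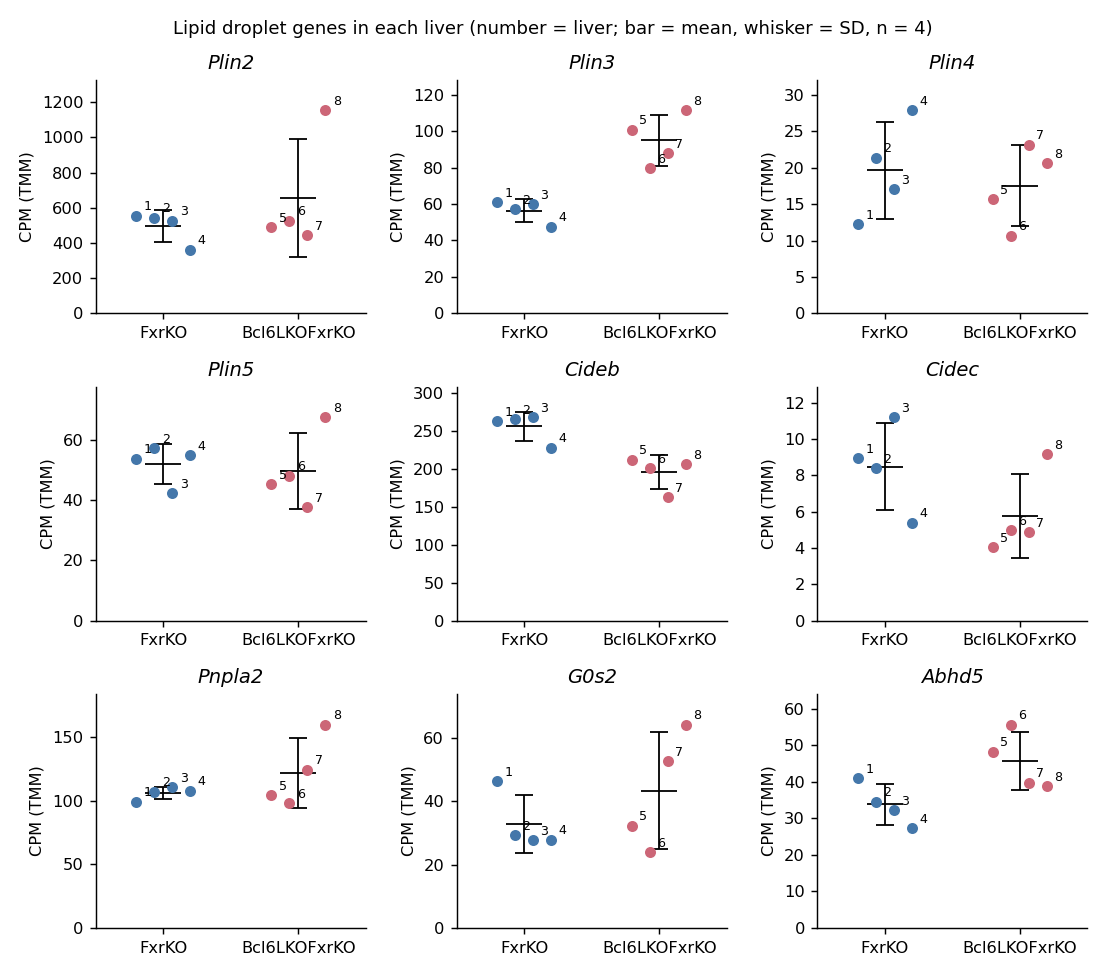
CPM of the 9 tested members in each liver, with the liver's number beside its point. Horizontal bars are means and whiskers are SDs (n = 4 livers per genotype). *Plin3* lies at 47.5 to 61.1 CPM in FxrKO and 79.5 to 111 CPM in Bcl6LKOFxrKO livers, and liver 8 lies at 1154 CPM of *Plin2*, above the other livers.

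*Plin3* (NM_025836, mm10 chromosome 17 from 56278962 to 56290511, minus strand), which encodes the perilipin that shuttles between cytosol and small droplets, was the member with the smallest adjusted p. It was at 61.1, 57.1, 59.8 and 47.5 CPM in FxrKO livers 1 to 4 and at 101, 79.5, 88.0 and 111 CPM in Bcl6LKOFxrKO livers 5 to 8. Every Bcl6LKOFxrKO liver was above every FxrKO liver. The mean rose from 56.4 ± 6.14 to 94.9 ± 14.1 CPM (SD, n = 4 each), a log2 fold change of 0.75 (standard error 0.13, 95% interval 0.47 to 1.03, edgeR adjusted p = 0.000847). The call held in all 15 alternatives, with log2 fold changes from 0.59 to 0.82.

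*Plin2* (NM_007408, chromosome 4 from 86656565 to 86670059, minus strand), the main droplet coat gene of hepatocytes, was the most abundant member. It was at 554, 543, 526 and 361 CPM in FxrKO livers and at 491, 526, 444 and 1154 CPM in Bcl6LKOFxrKO livers. Liver 8 was far above the others, and livers 5 to 7 lay within the FxrKO range. The log2 fold change was 0.40 (standard error 0.30, 95% interval -0.27 to 1.07, edgeR adjusted p = 0.348). Without liver 8 it was -0.026 (edgeR adjusted p = 0.916).

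*Plin5* (NM_001077348, chromosome 17 from 56111601 to 56117298, minus strand), known for tethering droplets to mitochondria, was at 53.7, 57.2, 42.3 and 54.9 CPM in FxrKO livers and at 45.2, 48.2, 37.6 and 67.5 CPM in Bcl6LKOFxrKO livers. The genotypes overlapped over most of their range, and liver 8 was again the highest. The log2 fold change was -0.07 (95% interval -0.43 to 0.29, edgeR adjusted p = 0.792), and it was positive, at 0.047, without liver 7. *Plin4* (NM_020568, chromosome 17 from 56100591 to 56109802, minus strand), a perilipin best known from adipocytes, was at 12.3, 21.4, 17.1 and 27.9 CPM in FxrKO livers and at 15.7, 10.7, 23.2 and 20.6 CPM in Bcl6LKOFxrKO livers. The genotypes overlapped, and FxrKO livers held the wider range. Its log2 fold change was -0.16 (95% interval -0.76 to 0.44, edgeR adjusted p = 0.696). It turned positive without liver 4 and without liver 6, at 0.062 and 0.0013. *Plin4* shares 17 exon bases with *Hdgfl2* on the other strand, which was at 30.2 to 51.6 CPM over the 8 livers.

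*Plin4*, *Plin5* and *Plin3* lie on the same strand of chromosome 17 within 189.9 kb. *Plin4* and *Plin5* are 1798 bases apart, and *Plin3* lies 161.7 kb from *Plin5*. Of these 3 neighbours, *Plin3* was called and *Plin4* and *Plin5* were not.

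The perilipin mixture within each liver does not depend on how libraries are scaled. Levels per length are RPKM, CPM divided by the transcript length in kilobases. *Plin2* made up 77.9% to 84.3% of the summed per-length level of the 4 perilipins in FxrKO livers and 78.3% to 87.3% in Bcl6LKOFxrKO livers. The *Plin3* share was 8.06%, 7.62%, 8.37% and 8.94% in FxrKO livers and 14.0%, 10.8%, 13.6% and 7.36% in Bcl6LKOFxrKO livers. It was higher in livers 5, 6 and 7 than in any FxrKO liver, and lowest of all 8 in liver 8, where *Plin2* was highest. *Plin5* held 6.43% to 11.2% and 4.83% to 7.08%, and *Plin4* held 0.606% to 1.97% and 0.510% to 1.34%. The *Plin5* to *Plin2* ratio of per-length levels was 0.0763 to 0.144 in FxrKO livers and 0.0554 to 0.0872 in Bcl6LKOFxrKO livers, and these ranges overlap.

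**Figure D2:**
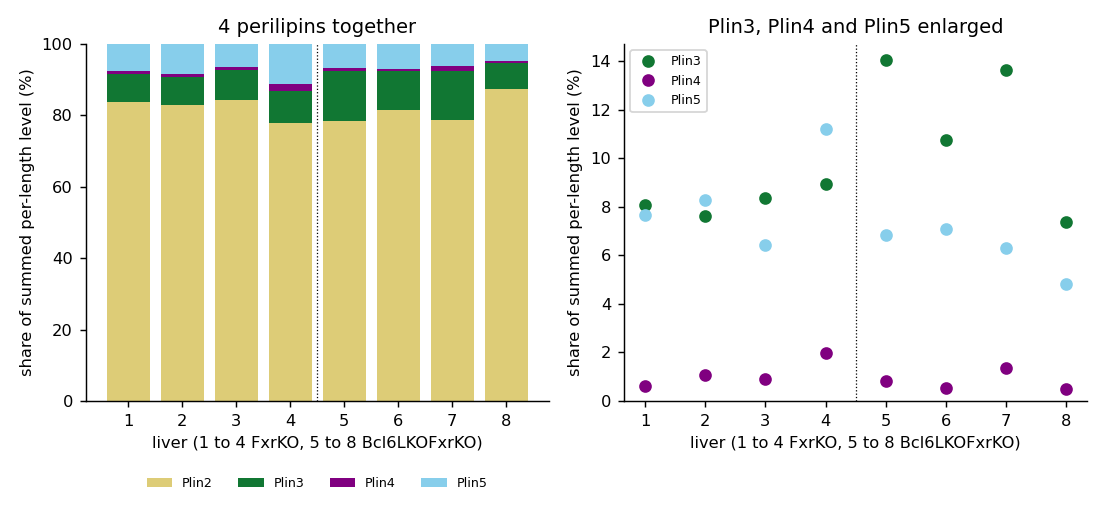
Share of each perilipin in the summed per-length level of *Plin2*, *Plin3*, *Plin4* and *Plin5* in each liver, in percent, with the dotted line between the genotypes. The left panel stacks all 4 and the right panel enlarges the 3 less abundant ones. *Plin3* reaches 10.8% to 14.0% in livers 5 to 7 and 7.36% in liver 8.

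*Cideb* (NM_009894, chromosome 14 from 55754055 to 55758424, minus strand), the hepatocyte CIDE gene, was at 263, 265, 267 and 227 CPM in FxrKO livers and at 212, 200, 162 and 206 CPM in Bcl6LKOFxrKO livers. Every Bcl6LKOFxrKO liver was below every FxrKO liver. The mean fell from 255 ± 18.9 to 195.0 ± 22.4 CPM (SD, n = 4 each), a log2 fold change of -0.39 (standard error 0.12, 95% interval -0.64 to -0.14, edgeR adjusted p = 0.0248). The call was lost in 4 of 15 alternatives, which left out liver 1, 2, 3 or 7, with adjusted p values from 0.0551 to 0.0700.

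*Cideb* shares exons with *Nop9*, a ribosome biogenesis gene on the opposite strand (chromosome 14 from 55745693 to 55755634), and the counting options do not name a strand. In GENCODE, 860 of the 1212 exon bases of *Cideb* (71.0%) also belong to *Nop9* exons. *Cideb* had 2523, 2119, 2486 and 2401 counts in FxrKO livers and 2100, 1652, 1664 and 2267 counts in Bcl6LKOFxrKO livers. *Nop9* had 2382, 1962, 2316 and 2191 counts and 2073, 1592, 1634 and 2274 counts in the same livers. The ratio of *Cideb* to *Nop9* counts was 1.06, 1.08, 1.07 and 1.10 in FxrKO livers and 1.01, 1.04, 1.02 and 0.997 in Bcl6LKOFxrKO livers. Both counts were thus nearly equal in every liver, and the ratio was lower in every Bcl6LKOFxrKO liver than in any FxrKO liver, with no test made of it. *Cideb* exceeded *Nop9* by 141, 157, 170 and 210 counts in FxrKO livers, and the difference was 27, 60, 30 and -7 counts in Bcl6LKOFxrKO livers. *Nop9* had a log2 fold change of -0.31 (edgeR adjusted p = 0.0723). Reads of the 2 genes cannot be told apart in these counts, so the fall of *Cideb* and its level are uncertain.

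**Figure D3:**
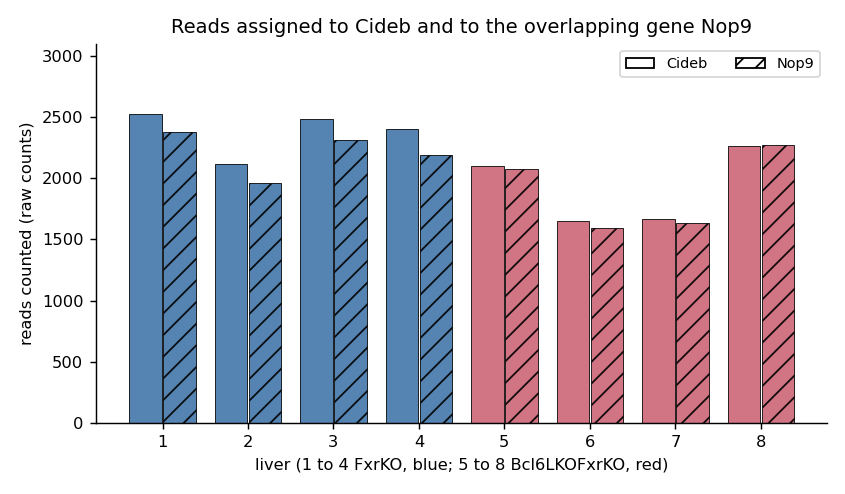
Raw counts assigned to *Cideb* (plain bars) and *Nop9* (hatched bars) in each liver, with FxrKO in blue and Bcl6LKOFxrKO in red. The *Cideb* to *Nop9* ratio is 1.06 to 1.10 in FxrKO and 0.997 to 1.04 in Bcl6LKOFxrKO livers.

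*Cidec* (NM_001301295, chromosome 6 from 113424634 to 113435760, minus strand), which promotes growth of large droplets, was low in these livers. It was at 8.95, 8.37, 11.2 and 5.39 CPM in FxrKO livers and at 4.03, 4.98, 4.87 and 9.17 CPM in Bcl6LKOFxrKO livers. Livers 5 to 7 were below every FxrKO liver, and liver 8 lay inside the FxrKO range. The log2 fold change was -0.54 (standard error 0.28, 95% interval -1.14 to 0.06, edgeR adjusted p = 0.161). It passed the test in 2 of 15 alternatives, at -0.87 without liver 8 (edgeR adjusted p = 0.0193) and at -0.78 with limma voom and sample quality weights (adjusted p = 0.0271).

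*Cidea* (NM_007702, chromosome 18 from 67343564 to 67367794, plus strand), the CIDE gene of brown fat and of fatty liver, had 0 counts in 7 livers and 1 count in liver 8. A count of 0 allows up to 3 counts, or 0.253 to 0.395 CPM at these depths, so no difference was detectable. The start of its transcript overlaps the noncoding *B430212C06Rik*, which had at most 1 count in any liver. Within the CIDE family, *Cideb* held 97.0% to 98.7% of the summed per-length level in the 8 livers and *Cidec* held 1.28% to 2.94%, where the *Cideb* part includes reads that may come from *Nop9*.

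*Pnpla2* (NM_001163689, chromosome 7 from 141455188 to 141460743, plus strand), the lipase gene itself, was at 99.2, 107, 111 and 108 CPM in FxrKO livers and at 105, 98.2, 124 and 160 CPM in Bcl6LKOFxrKO livers. The FxrKO livers lay close together, livers 5 and 6 were near them, and livers 7 and 8 were above them. The log2 fold change was 0.20 (95% interval -0.11 to 0.51, edgeR adjusted p = 0.326). Without liver 8 it was 0.04.

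*Abhd5* (NM_026179, chromosome 9 from 122351616 to 122381523, plus strand), encoding the co-activator of the lipase, was at 41.1, 34.6, 32.2 and 27.3 CPM in FxrKO livers and at 48.4, 55.7, 39.8 and 38.9 CPM in Bcl6LKOFxrKO livers. Livers 7 and 8 were below FxrKO liver 1 and above FxrKO livers 2 to 4, so the genotypes overlapped. The mean rose from 33.8 ± 5.72 to 45.7 ± 7.92 CPM (SD, n = 4 each), a log2 fold change of 0.43 (standard error 0.15, 95% interval 0.10 to 0.76, edgeR adjusted p = 0.0481). The adjusted p lay just under the threshold, and the call was lost in 7 of 15 alternatives. These left out liver 2, 3, 4, 5 or 6 (adjusted p from 0.0928 to 0.145), used total counts alone (log2 fold change 0.27, adjusted p = 0.176) or applied no filter (adjusted p = 0.0515). In GENCODE, 950 exon bases of *Abhd5* (30.1%) are shared with the noncoding *A730085K08Rik* on the other strand. The transcript counted for *A730085K08Rik* had 0 counts in all 8 livers. It spans 122382022 to 122398801, beyond the end of *Abhd5*, so these counts do not cover the shared bases and cannot show whether reads there come from it.

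*G0s2* (NM_008059, chromosome 1 from 193272160 to 193273188, minus strand), encoding the inhibitor of the lipase, was at 46.4, 29.2, 27.7 and 27.9 CPM in FxrKO livers and at 32.3, 24.0, 52.8 and 64.3 CPM in Bcl6LKOFxrKO livers. Within each genotype, the livers differed by over 1.5-fold, and the genotypes overlapped. The log2 fold change was 0.41 (standard error 0.31, 95% interval -0.28 to 1.09, edgeR adjusted p = 0.354). It was 0.15 without liver 8 and 0.62 without liver 1, and was not called in either fit.

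The balance of inhibitor, co-activator and lipase within a liver was described by ratios of per-length levels, with no test. The *G0s2* to *Pnpla2* ratio was 1.46, 0.853, 0.784 and 0.808 in FxrKO livers and 0.967, 0.766, 1.33 and 1.26 in Bcl6LKOFxrKO livers. The *Abhd5* to *Pnpla2* ratio was 0.347, 0.270, 0.244 and 0.212 in FxrKO livers and 0.387, 0.474, 0.268 and 0.203 in Bcl6LKOFxrKO livers. Both ratios overlapped between the genotypes. Livers 5 and 6 had more *Abhd5* per *Pnpla2* than any FxrKO liver, and liver 8 had the least of the 8 livers.

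**Figure D4:**
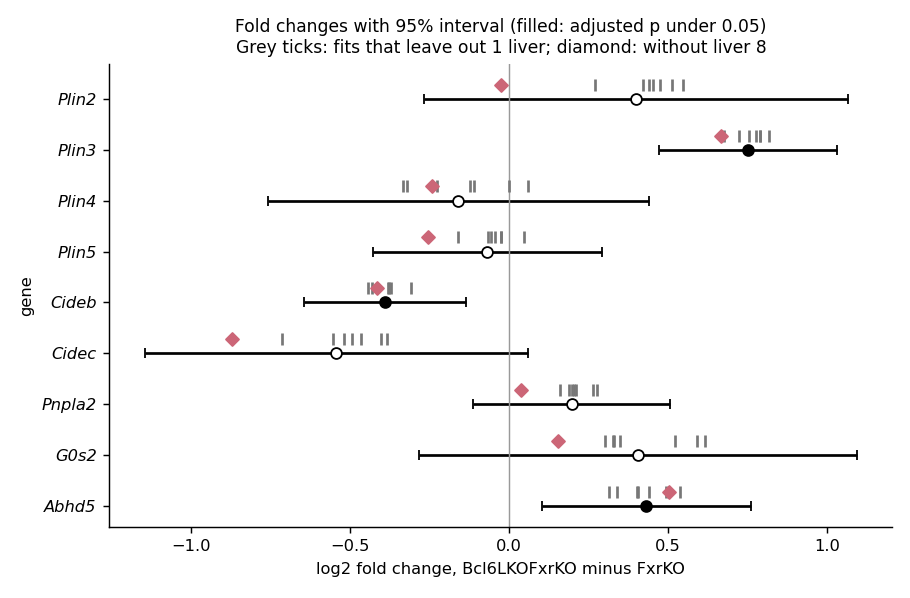
Log2 fold change (Bcl6LKOFxrKO minus FxrKO) of the 9 tested members with its 95% interval, filled where the edgeR adjusted p was under 0.05. Grey ticks are fits that leave out 1 liver, and the diamond is the fit without liver 8. *Plin3* stays between 0.67 and 0.82 in these fits, and *Plin2* moves from 0.40 to -0.026 without liver 8.

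Per length, the members spanned a wide range of levels. In FxrKO livers the order by mean RPKM was *Plin2* (264 ± 48.3), *Cideb* (219 ± 16.2), *Pnpla2* (40.5 ± 1.88), *G0s2* (39.1 ± 10.8), *Plin5* (26.3 ± 3.34), *Plin3* (26.2 ± 2.86), *Abhd5* (10.8 ± 1.82), *Cidec* (4.95 ± 1.39) and *Plin4* (3.42 ± 1.16, SD, n = 4 each). The ranges over livers overlapped between *Plin2* and *Cideb*, *Pnpla2* and *G0s2*, *Plin5* and *Plin3*, and *Cidec* and *Plin4*, and not between the other neighbours in this order. In Bcl6LKOFxrKO livers *Plin3* (44.2 ± 6.54 RPKM) stood before *Plin5* (25.0 ± 6.41 RPKM), and the ranges of these 2 no longer overlapped. There *Plin3* overlapped *Pnpla2* (46.4 ± 10.6 RPKM), which overlapped *G0s2* (51.7 ± 22.0 RPKM), while *Plin2* (348 ± 178 RPKM) lay above *Cideb* (167 ± 19.2 RPKM) in every liver. In both genotypes the *Cideb* level includes reads that may come from *Nop9*, so its place in the order is uncertain. *Abhd5* (14.6 ± 2.52), *Cidec* (3.37 ± 1.35) and *Plin4* (3.06 ± 0.962 RPKM) kept their places.

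Liver 8 was the highest Bcl6LKOFxrKO liver for 6 of 9 tested members (*Plin2*, *Plin3*, *Plin5*, *Cidec*, *Pnpla2* and *G0s2*) and the lowest for *Abhd5*. The summed level of 9 macrophage markers was also highest there, at 876 CPM, against 540 to 598 CPM in livers 5 to 7 and 392 to 553 CPM in FxrKO livers. *Cd5l* (263 CPM) and *Clec4f* (226 CPM) led the sum of liver 8. Of the 9 markers, *Cd5l*, *Clec4f*, *Cd68*, *Csf1r* and *Marco* were highest in liver 8, and *Adgre1*, *Vsig4*, *Timd4* and *Lyz2* were not. In FxrKO livers, liver 4 was the lowest for 5 of 9 members (*Plin2*, *Plin3*, *Cideb*, *Cidec* and *Abhd5*). How often livers 8 and 4 were extreme over all tested genes was not counted, so these counts need not be particular to the members. Without liver 8, 2 members were called higher and 2 lower, with *Cidec* joining *Cideb*. The part of the macrophage markers in these values was not tested.

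Markers of other liver cells were measured beside the members. The summed level of 8 stellate cell markers was 72.2 to 87.5 CPM in FxrKO and 161 to 167 CPM in Bcl6LKOFxrKO livers. Of the 8, 6 (75%) were called higher and 0 lower, against 29.7% of all tested genes called. Of 9 macrophage markers, 2 (22.2%) were called higher and 0 lower, against 29.7% of all tested genes called, and their sums overlapped between genotypes. Of 7 cholangiocyte markers, 4 were tested and 2 (50%), *Krt19* and *Spp1*, were called higher. *Epcam* (log2 fold change 0.78) and *Sox9* (-0.81) were not called. The sum of the 7 was 41.5 to 66.1 and 74.4 to 134 CPM. *Spp1* alone was at 36.65 to 53.7 and 66.2 to 123 CPM, so this sum mostly describes *Spp1*. The 8 hepatocyte markers summed to 92980 to 99330 CPM and 199000 to 237100 CPM, with 3 called higher and 2 lower (62.5% together). *Alb* (means 44550 and 135500 CPM) and *Trf* (18410 and 44210 CPM) led this difference, and *Ahsg* was also called higher. *Apob* and *Ttr* were called lower, and *Apoa1*, *Fga* and *Cps1* were not called, so the sum does not describe all 8 markers. The part of any cell type in the rise of *Plin3* and *Abhd5* was not tested.

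Adipocytes express *Cidec*, *Cidea* and *Plin4*, and of 8 adipocyte markers 6 were at or near 0 while *Fabp4* and *Cfd* were counted. *Plin1*, *Lep* and *Ucp1* had 0 counts in all 8 livers, and *Adipoq*, *Retn* and *Adig* had at most 3 counts in any liver. *Fabp4*, which macrophages and vessels also express, was at 6.66 to 13.0 and 7.66 to 13.4 CPM. *Cfd*, which encodes adipsin, had 19, 56, 117 and 16 counts in FxrKO livers and 1, 1, 3 and 0 counts in Bcl6LKOFxrKO livers, and it was called lower (edgeR adjusted p = 0.00438). Like *Cidec*, it was highest in FxrKO liver 3 and lowest among the FxrKO livers in liver 4. In liver 1, *Cfd* was almost as low as in liver 4, at 1.98 against 1.51 CPM, while *Cidec* was at 8.95 CPM, above livers 2 and 4. Liver 8 held 0 counts of *Cfd* and the highest *Cidec* level of its genotype. The part of adipocytes in the *Cidec* values was not tested. The summed level of the 8 adipocyte markers was 11.9 to 19.6 CPM in FxrKO and 7.76 to 13.5 CPM in Bcl6LKOFxrKO livers.

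The promoters of *Plin3*, *Plin2* and *Abhd5* are shown because the first and the last rose and *Plin2* was the most abundant member and stood apart in liver 8. Each run is the 250 bases before the RefSeq start (GRCm38.p6), 5′ to 3′ on the gene's strand, with at most 8 bases of annotated exon. Capitals mark matches to the searched motifs.
Plin3 (chr17:56290512-56290761, minus strand): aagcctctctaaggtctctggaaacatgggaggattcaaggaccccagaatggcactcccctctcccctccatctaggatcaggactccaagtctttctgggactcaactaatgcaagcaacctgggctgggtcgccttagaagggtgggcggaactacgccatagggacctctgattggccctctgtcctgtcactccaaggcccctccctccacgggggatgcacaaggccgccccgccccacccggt
Plin2 (chr4:86670060-86670309, minus strand): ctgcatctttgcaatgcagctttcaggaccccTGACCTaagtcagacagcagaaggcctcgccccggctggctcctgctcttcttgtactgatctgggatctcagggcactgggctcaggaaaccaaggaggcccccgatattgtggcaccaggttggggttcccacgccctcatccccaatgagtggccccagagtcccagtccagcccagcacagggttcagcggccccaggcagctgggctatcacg
Abhd5 (chr9:122351366-122351615, plus strand): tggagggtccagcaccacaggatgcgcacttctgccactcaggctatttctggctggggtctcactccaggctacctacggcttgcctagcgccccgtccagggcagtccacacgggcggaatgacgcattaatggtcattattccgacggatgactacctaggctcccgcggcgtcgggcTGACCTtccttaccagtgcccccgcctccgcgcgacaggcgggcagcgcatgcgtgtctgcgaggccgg
The searched motifs, on both strands, were AGGTCA, the half-site of nuclear receptors such as PPARs, AGGNCANAGGNCA, its direct repeat with 1 base between, and TTCNNNGAA, the core of BCL6 and STAT sites. Over all 32851 promoter windows of this length, 14.0% held AGGTCA, 0.338% the direct repeat and 7.02% TTCNNNGAA. Of 11 windows of 9 members, 3 held AGGTCA, and 0 held either of the other motifs. *Cidea* was left out of this search. The matches were at position -218 in *Plin2*, -69 in *Abhd5* and -170 in 1 of 2 windows of *Plin5*. That *Plin5* window is not the one next to the start of the counted transcript, which held no match. The *Plin3* window held no match. These are matches of letters in a short window and say nothing about binding there or elsewhere.

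Other genes of the pathway, 59 in 5 lists, were examined in the same fit. Of the 58 tested, 11 were called higher and 19 lower, and the median over the 58 was -0.33 on the log2 scale. Together 51.7% were called, against 29.7% of all tested genes, and these lists were chosen with earlier results of these data known.

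Among 12 other lipases and inhibitors, 4 were called higher and 5 lower (75% together, against 29.7% of all tested genes). The list's median was -0.27 on the log2 scale. *Ces1g*, a hepatic carboxylesterase, rose by 1.95 on the log2 scale (edgeR adjusted p = 0.000913). *Pnpla5*, a relative of *Pnpla2*, rose by 1.82, with 3 to 8 counts in FxrKO and 16 to 31 in Bcl6LKOFxrKO livers, and *Hilpda*, another inhibitor of the same lipase, rose by 1.13. *Lipe*, hormone-sensitive lipase, fell by 0.99 (edgeR adjusted p = 0.000857), and *Ddhd2* and *Aadac*, 2 other lipid hydrolases, fell by 0.84 and 0.58. Of 17 tested genes among 18 other droplet proteins, 0 were called higher and 4 lower (23.5%), around a median of -0.20. Of all tested genes, 16.2% were called higher and 13.5% lower, 29.7% together. The share called in either direction was thus below the background, and the share called lower was above it. *Mettl7a1*, *Hsd17b11* and *Ldah*, which encode droplet-associated enzymes, fell by 0.90, 0.94 and 0.69 on the log2 scale.

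Of 11 nuclear receptors and partners, 1 was called higher and 5 lower (54.5% together, against 29.7% of all tested genes). Their median was -0.64 on the log2 scale. *Ppara*, the fatty acid receptor of hepatocytes, was at 205, 264, 269 and 296 CPM in FxrKO livers and at 100, 132, 177 and 112 CPM in Bcl6LKOFxrKO livers. The genotypes did not overlap, and it fell by 0.99 on the log2 scale (standard error 0.17, edgeR adjusted p = 0.00104). *Pparg*, the adipogenic receptor, was at 11.5 to 24.9 and 16.3 to 26.1 CPM, and its log2 fold change was 0.32 (standard error 0.24, edgeR adjusted p = 0.339). *Ppard* rose by 0.65, and *Cebpa* and *Cebpb* fell by 0.70 and 0.62.

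Among 12 PPARA-linked genes, 2 were called higher and 5 lower (58.3% together, against 29.7% of all tested genes). Their median was -0.42 on the log2 scale. *Cpt1a*, of mitochondrial fatty acid import, fell by 0.89 on the log2 scale (edgeR adjusted p = 0.00183). The 2 called higher were *Fgf21*, a hepatokine with 0 to 7 counts in FxrKO and 16 to 36 counts in Bcl6LKOFxrKO livers, and *Pdk4*, which rose by 2.25. Among 6 genes linked to PPARG and lipid uptake, 4 were called higher and 0 lower (66.7%, against the same 29.7%). Their median was 1.03 on the log2 scale. *Vldlr*, a lipoprotein receptor, rose by 2.48, *Cd36*, a fatty acid transporter, rose by 0.99, and *Aqp7*, a glycerol channel with 1 to 7 counts in FxrKO livers, rose by 3.29.

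**Figure D5:**
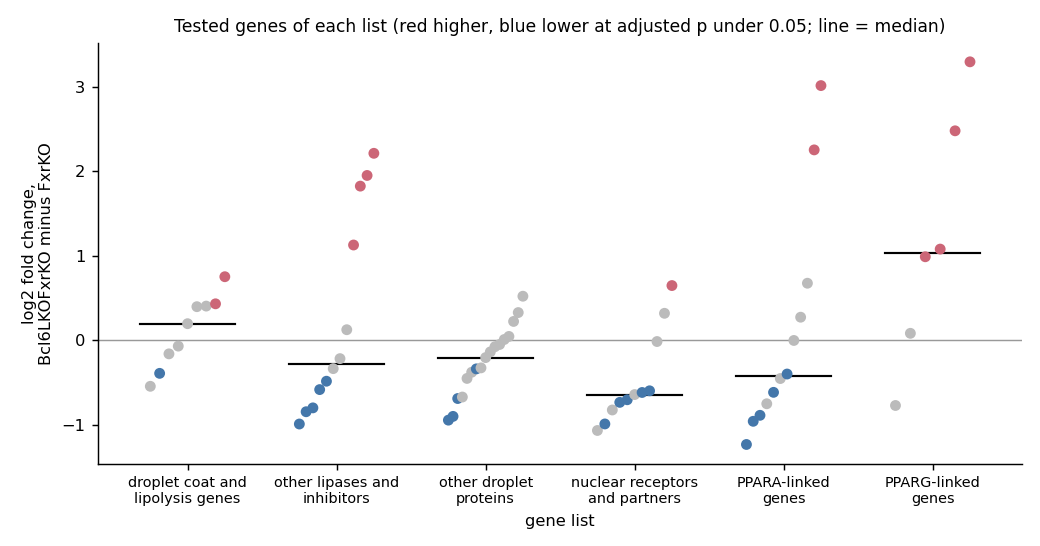
Log2 fold change (Bcl6LKOFxrKO minus FxrKO) of each tested gene, grouped by list, with red for genes called higher, blue for genes called lower and grey for the rest at an adjusted p under 0.05. Black lines are medians. The droplet coat and lipolysis genes have a median of 0.20, the PPARA-linked genes -0.42 and the PPARG-linked genes 1.03.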

How the data were processed

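Liver RNA of 4 FxrKO and 4 Bcl6LKOFxrKO males was sequenced from stranded polyA libraries. Per the submitters' notes and the study's methods, the authors mapped single-end reads (mm10, STAR 2.5.2, unique hits kept) and deposited raw exon counts made with HOMER 4.10, using 1 transcript for each gene. The counting options name no strand, so overlapping genes are uncertain. The members and lists were chosen with earlier results of these data known.

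Counts were fitted with edgeR 4.0.16 (R 4.3.3) using filterByExpr, TMM and robust quasi-likelihood tests without covariates, and p-values were adjusted over 12340 genes. Alternatives were DESeq2 1.42.0, limma 3.58.1 voom with quality weights, other scalings, filters and thresholds, and each liver left out. No library was a repeat deposit of another of its genotype (chi-square per degree of freedom 10.0 to 45.8 between pairs).

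The genes named were all members, *Bcl6* and *Nr1h4*, the 3 most significant called genes per list and direction, *Ppara*, *Pparg*, the adipocyte markers, and genes overlapping a member. Of these, 2 genes are not reported here. Marker lists covered hepatocytes, adipocytes, macrophages, stellate cells and cholangiocytes. The macrophage, hepatocyte and cholangiocyte markers were named after their values were seen. The promoters to show were chosen after the values were seen.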

Additional observations from a re-analysis of the deposited data

Results flagged for a closer look

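In groups of 4 livers, a liver was examined when its gap to the nearest other liver took a larger share of the group's range than Dixon's 95% critical value for 4 values. Of 24 sets of 4 values (9 members and 3 ratios in each genotype), 5 met this, where chance gives about 1.2. In Bcl6LKOFxrKO livers, *Plin2* of liver 8 was above the others, with a ratio of 0.884. In FxrKO livers, *Plin2* of liver 4 was the lowest (0.853), and *Cideb* of liver 4 was the lowest (0.885), with the *Nop9* overlap applying to the latter. *G0s2* of liver 1 was the highest FxrKO value (0.919), and so was its *G0s2* to *Pnpla2* ratio (0.899), which shares the *G0s2* value.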

How the results depend on the processing

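No paired analysis was possible because the library numbers in the labels, 1 to 4 and 5 to 8, are not shared between genotypes. Some mouse numbers in the labels are consecutive across genotypes, and nothing there says that they mark a litter or a batch. Over 15 alternatives for each of the 9 tested members, 118 values kept their direction and their side of the threshold, 11 lost a call (*Abhd5* and *Cideb*), 2 gained one (*Cidec*) and 4 changed sign. The sign changed for *Plin2* without liver 8 (-0.026), *Plin4* without liver 4 (0.062) and without liver 6 (0.0013), and *Plin5* without liver 7 (0.047). With each liver left out, members called higher ranged from 1 to 2 and lower from 0 to 2, and log2 fold changes ranged from -0.026 to 0.55 for *Plin2*, -0.33 to 0.062 for *Plin4*, -0.25 to 0.047 for *Plin5* and 0.15 to 0.62 for *G0s2*. Members called were 2 higher and 2 lower with limma voom, 1 higher with total counts alone and 1 higher with no filter. At an adjusted p under 0.01 they were 1 higher and 0 lower, and above an absolute log2 fold change of 0.5 also 1 and 0. Over all tested genes, 1994 were called higher and 1665 lower, 1149 and 885 at an adjusted p under 0.01, and 2949 lower with total counts alone. Other pathway genes called higher were 7 with at least 10 counts in every liver, against 11 in the main fit. *Pnpla5*, *Hilpda*, *Fgf21* and *Aqp7* were called higher in the main fit. Each had under 10 counts in 1 or more FxrKO livers and so did not enter that fit. The cause of the other differences was not tested. With 4 livers per genotype and *Cidec* at 40 to 104 counts, intervals were wide for the low members, and spread between livers limits *Plin2* and *G0s2*.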
